A study of Mus musculus with 6 samples.

Results

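The collagen, laminin and integrin genes of mouse oocytes were the genes whose symbols follow the naming of collagen chains, laminin chains and integrin chains, together with fibronectin and the nidogens. The symbol pattern matched 73 of the 17577 genes listed in the oocyte tables. Of these, 43 were matrix genes (collagens, laminins, nidogens and fibronectin), 27 were integrin chains, and 3 matched by symbol alone, because they encode proteins of other kinds (Itgb1bp1, Itgb3bp and Col4a3bp). Germinal vesicle (GV) oocytes, which are fully grown oocytes arrested before the meiotic divisions, were obtained from the ovaries of 12-week-old C57BL/6 J females. The libraries formed 2 groups of 3, from Bnc1tr/tr mice and from wild-type (WT) mice. Bnc1tr/tr mice are homozygous for a frameshift deletion in Bnc1 that is carried in every cell of the animal and truncates basonuclin 1, a zinc finger protein of germ cells and epithelia. Both genotypes came from crosses of heterozygotes, and the donors of both groups had been superovulated with pregnant mare serum gonadotropin before antral follicles were punctured. Each cDNA was made from a single oocyte with a poly(A)-primed, template-switching procedure (modified Smart-seq2) and amplified. The labels do not say whether the libraries of a group came from separate animals, so p-values measure the spread between these libraries.

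Integrins are cell surface receptors built of an alpha and a beta chain that bind matrix proteins such as laminin, fibronectin and vitronectin. Laminins are trimers of an alpha, a beta and a gamma chain, and with type IV collagen and nidogen they form basement membranes, the sheets that surround each ovarian follicle. Fibrillar collagens and fibronectin fill the stroma between follicles, whereas the oocyte itself is enclosed in a zona pellucida of glycoproteins and carries integrins on its membrane.

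Promoter windows of 6 members show the sequence upstream of the genes on which the results below turn. Itgb6 and Itgb5 had higher levels in Bnc1tr/tr oocytes. In both groups Itgb1 had the highest level of the integrin beta chains and Lamb1 that of the laminin chains. The windows of Col4a1 and Col4a4 each hold the start of a neighbouring type IV collagen gene on the opposite strand. Sequences are from RefSeq (GRCm38.p6), run 5′ to 3′ on the strand of the gene, and hold 250 bases before and 50 bases from the start site, which is base 251. Capitals mark every GC box (GGGCGG) or CCAAT box (CCAAT) on either strand, and no TATA box (TATAAA) was present in these windows.
Itgb6 chr2:60722554-60722853, minus strand: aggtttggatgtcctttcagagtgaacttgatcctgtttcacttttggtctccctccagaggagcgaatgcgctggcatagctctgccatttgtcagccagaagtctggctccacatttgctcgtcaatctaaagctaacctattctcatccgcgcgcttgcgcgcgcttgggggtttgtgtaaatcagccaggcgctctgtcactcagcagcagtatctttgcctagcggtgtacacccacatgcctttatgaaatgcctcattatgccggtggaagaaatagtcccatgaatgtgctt
Itgb5 chr16:33829415-33829714, plus strand: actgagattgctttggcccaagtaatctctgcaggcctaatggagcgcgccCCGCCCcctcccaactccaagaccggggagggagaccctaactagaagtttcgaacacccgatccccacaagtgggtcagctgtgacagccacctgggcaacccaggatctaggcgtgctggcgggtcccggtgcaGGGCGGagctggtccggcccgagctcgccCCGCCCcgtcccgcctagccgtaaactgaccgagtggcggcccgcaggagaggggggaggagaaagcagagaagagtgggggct
Itgb1 chr8:128685404-128685703, plus strand: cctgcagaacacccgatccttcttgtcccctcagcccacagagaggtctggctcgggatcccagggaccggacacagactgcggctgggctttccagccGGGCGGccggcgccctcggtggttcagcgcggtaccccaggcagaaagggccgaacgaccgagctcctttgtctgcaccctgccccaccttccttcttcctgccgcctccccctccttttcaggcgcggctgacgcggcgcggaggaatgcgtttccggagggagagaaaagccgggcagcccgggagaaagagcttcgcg
Lamb1 chr12:31265043-31265342, plus strand: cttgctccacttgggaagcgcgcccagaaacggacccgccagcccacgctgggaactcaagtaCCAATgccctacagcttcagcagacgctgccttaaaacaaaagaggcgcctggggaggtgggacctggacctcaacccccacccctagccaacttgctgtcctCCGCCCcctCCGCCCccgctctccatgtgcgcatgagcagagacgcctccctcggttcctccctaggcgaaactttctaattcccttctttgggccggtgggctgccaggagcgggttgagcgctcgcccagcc
Col4a1 chr8:11312777-11313076, minus strand: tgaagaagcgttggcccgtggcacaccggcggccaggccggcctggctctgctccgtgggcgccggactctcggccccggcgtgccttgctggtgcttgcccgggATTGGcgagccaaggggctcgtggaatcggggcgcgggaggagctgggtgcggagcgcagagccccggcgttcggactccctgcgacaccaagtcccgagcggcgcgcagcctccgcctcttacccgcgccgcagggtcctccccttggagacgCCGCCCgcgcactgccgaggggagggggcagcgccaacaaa
Col4a4 chr1:82586800-82587099, minus strand: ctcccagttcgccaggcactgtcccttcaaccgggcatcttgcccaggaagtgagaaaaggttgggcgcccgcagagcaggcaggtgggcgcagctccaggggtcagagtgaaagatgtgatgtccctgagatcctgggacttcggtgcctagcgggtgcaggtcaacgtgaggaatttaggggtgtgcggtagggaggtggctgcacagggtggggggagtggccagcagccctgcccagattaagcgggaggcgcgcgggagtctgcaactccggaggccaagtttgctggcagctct
Itgb6 has another annotated start downstream, whose window also held no motif and is not shown. The first base of Col4a2 is base 272 of the Col4a1 window, and the first base of Col4a3 is base 179 of the Col4a4 window. Windows were found for 52 of 73 members (56 windows). A GC box was present in 29 of the 56 member windows and in 35.7% of all 32851 windows, a CCAAT box in 16 and in 37.4%, and a TATA box in 3 and in 13.6%. In the windows shown no match overlapped another, and a match describes letters, not binding.

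Levels are FPKM (mapped fragments per kb of transcript length, scaled to a library of 1 M fragments, M for mega), which are corrected for transcript length. Comparisons between genes also assume equal recovery of their amplified cDNA, which was not tested. The longest transcripts of the members ran from 1921 to 11388 bases. The Bnc1 transcript itself stood at 9.04, 6.51 and 5.83 FPKM in Bnc1tr/tr replicates 1 to 3 and at 13.2, 12.5 and 16.2 FPKM in WT, with no overlap (log2 fold change −0.89, SE 0.20, limma adjusted p = 0.009). FPKM totals ranged from 657550 to 724550, and depth estimated from the steps between low values ranged from 13.1 to 21.5 M fragments, with WT replicate 3 the least certain. At the shallowest library, 3 fragments corresponded to a median of 0.0422 FPKM over the members (0.0125 to 0.135 FPKM over all members and libraries), and this covers counting error only. More genes were listed above 0 in each Bnc1tr/tr library (15258 to 15736) than in each WT library (13896 to 14576). The 10560 genes whose average over the 6 libraries reached 1 FPKM were tested with limma on log2(FPKM + 1), a scale that understates changes of low genes. A gene was called changed at an adjusted p under 0.05 with an absolute log2 fold change over 0.5. Over all tested genes the log2 fold changes had a median of 0.15. Of all tested genes 31.8% were called, 24.1% as higher and 7.68% as lower in Bnc1tr/tr. These calls were 75.8% higher in Bnc1tr/tr, 56.0% with libraries scaled by their median ratio and 48.0% after quantile normalization, so directions of small changes depend on the scaling.

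Transcripts for few integrin chains were abundant in the oocytes, and those were mainly alpha chains. Integrin alpha chains summed to 84.2 ± 5.21 FPKM in WT and 102 ± 3.36 FPKM in Bnc1tr/tr, and beta chains to 11.3 ± 0.390 and 22.2 ± 2.2 FPKM (SD, n = 3). In WT, only Itga9, Itga6, Itgb1, Itga8 and Itgb3 had a mean of at least 1 FPKM, in this order, and the libraries of no 2 neighbours in it overlapped. The remaining 22 chains had WT means of 0 to 0.657 FPKM. Members as a whole, with the 3 genes matched by symbol alone, took 0.0636% to 0.0695% of the FPKM total of a library, with overlap between the groups. Those 3 genes summed to 227 ± 32.5 FPKM in Bnc1tr/tr and 263 ± 25.1 FPKM in WT (SD, n = 3). All integrin chains summed to 118 to 129 FPKM in Bnc1tr/tr and 91.55 to 102 FPKM in WT, without overlap. Matrix genes summed to 99.8 to 119 FPKM and 90.6 to 94.4 FPKM, also without overlap.

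Itga9 encodes the alpha chain of a receptor for tenascin and osteopontin that pairs with the beta chain of Itgb1. It stood at 58.6, 61.2 and 54.2 FPKM in Bnc1tr/tr and at 63.0, 51.1 and 49.2 FPKM in WT, so the groups overlapped. The log2 fold change was 0.10 with a 95% interval of −0.28 to 0.48 (limma adjusted p = 0.70), and it was −0.12 with median-ratio scaling. Itga6, a laminin receptor chain on the oocyte membrane (NCBI Gene 16403, chr2:71786886-71858427, RefSeq GRCm38.p6), was at 37.8, 35.6 and 38.0 FPKM in Bnc1tr/tr and at 22.2, 24.98 and 27.0 FPKM in WT. All Bnc1tr/tr libraries were above all WT libraries, and Itga6 was called higher (log2 fold change 0.57, SE 0.16, adjusted p = 0.023). Relative to the median of all genes the difference was 0.43. The call was lost with median-ratio scaling (0.36, adjusted p = 0.14) and quantile normalization (0.41, adjusted p = 0.09). It was also lost without Bnc1tr/tr replicate 1, 2 or 3 (adjusted p = 0.066, 0.051 and 0.069) and without WT replicate 1 or 2 (adjusted p = 0.076 and 0.081). Itga8, the alpha chain of a nephronectin receptor, was at 5.15, 3.57 and 2.98 FPKM in Bnc1tr/tr and 3.24, 3.26 and 4.67 FPKM in WT. These groups overlapped (log2 fold change 0.04, adjusted p = 0.90), and the sign turned with median-ratio scaling and quantile normalization.

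Itgb1, the beta chain that partners most alpha chains including those of Itga9, Itga6 and Itga8, stood at 12.0, 9.33 and 9.00 FPKM in Bnc1tr/tr and at 6.73, 7.81 and 7.20 FPKM in WT. The groups did not overlap, but the difference missed the adjusted threshold (log2 fold change 0.42, SE 0.17, 95% interval 0.03 to 0.81, limma adjusted p = 0.094). Itgb3, which joins alpha chains that bind vitronectin and fibrinogen, stood the other way, at 1.60, 1.63 and 1.47 FPKM in Bnc1tr/tr and 2.70, 2.03 and 2.15 FPKM in WT. All Bnc1tr/tr libraries were below all WT libraries, and the difference missed the threshold (log2 fold change −0.35, SE 0.16, adjusted p = 0.12). After quantile normalization Itgb3 was called lower (−0.79, adjusted p = 0.005).

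The largest rises among the tested members, on the log2(FPKM + 1) scale, were in beta chains that were low in WT. These chains passed the filter on low values only through Bnc1tr/tr, so that they had to differ to be tested, and their calls carry no count as support. Itgb6 encodes a beta chain of epithelia that pairs with the alpha chain of Itgav and binds latent TGF-beta (NCBI Gene 16420, chr2:60598292-60722603). It stood at 2.74, 5.58 and 4.22 FPKM in Bnc1tr/tr and at 0.24, 0.19 and 0.41 FPKM in WT. The lowest Bnc1tr/tr library was above the highest WT library, and the ratio of the means was 14.9 (log2 fold change 1.98, SE 0.22, limma adjusted p = 0.00022). The gene was called higher under all 13 alternatives that could test it, with adjusted p of 0.00024 to 0.0029. Itgb2, the beta chain of leukocyte integrins (NCBI Gene 16414, chr10:77530329-77565708), was at 2.17, 3.20 and 2.51 FPKM in Bnc1tr/tr and 0.96, 0.67 and 0.22 FPKM in WT. The groups did not overlap (log2 fold change 1.18, SE 0.22, adjusted p = 0.0033), and the call held under all 13 alternatives (adjusted p = 0.0032 to 0.025).

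Itgb5, another partner of Itgav that binds vitronectin (NCBI Gene 16419, chr16:33829665-33949338), was at 2.61, 1.29 and 1.30 FPKM in Bnc1tr/tr and at 0.87, 0.46 and 0.32 FPKM in WT. The groups did not overlap, and replicate 1 was the highest Bnc1tr/tr library (log2 fold change 0.80, SE 0.23, limma adjusted p = 0.028). Without that replicate the log2 fold change was 0.58 and the call was lost (adjusted p = 0.084), as it was without WT replicate 2 or 3 (adjusted p = 0.088 and 0.061), without a filter on low values (adjusted p = 0.06) and after quantile normalization (adjusted p = 0.19). Annotated transcripts of Itgb5 share 7.86% of their 31-base words with other gene models, so a part of its fragments could have been assigned either way. This limit is not particular to Itgb5, with shares of 6.2% for Itga6, 5.83% for Itgb4, 5.63% for Itgav and 5.08% for Col4a3. Itgb4, the beta chain of hemidesmosomes that pairs with the alpha chain of Itga6, was singled out after its values were seen, because its mean over the 6 libraries lay just under the filter. It was at 2.46, 1.35 and 1.24 FPKM in Bnc1tr/tr and at 0.10, 0.14 and 0.31 FPKM in WT. The groups did not overlap, and without the filter it was called higher (log2 fold change 1.16, SE 0.19, adjusted p = 0.011).

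**Figure D1:**
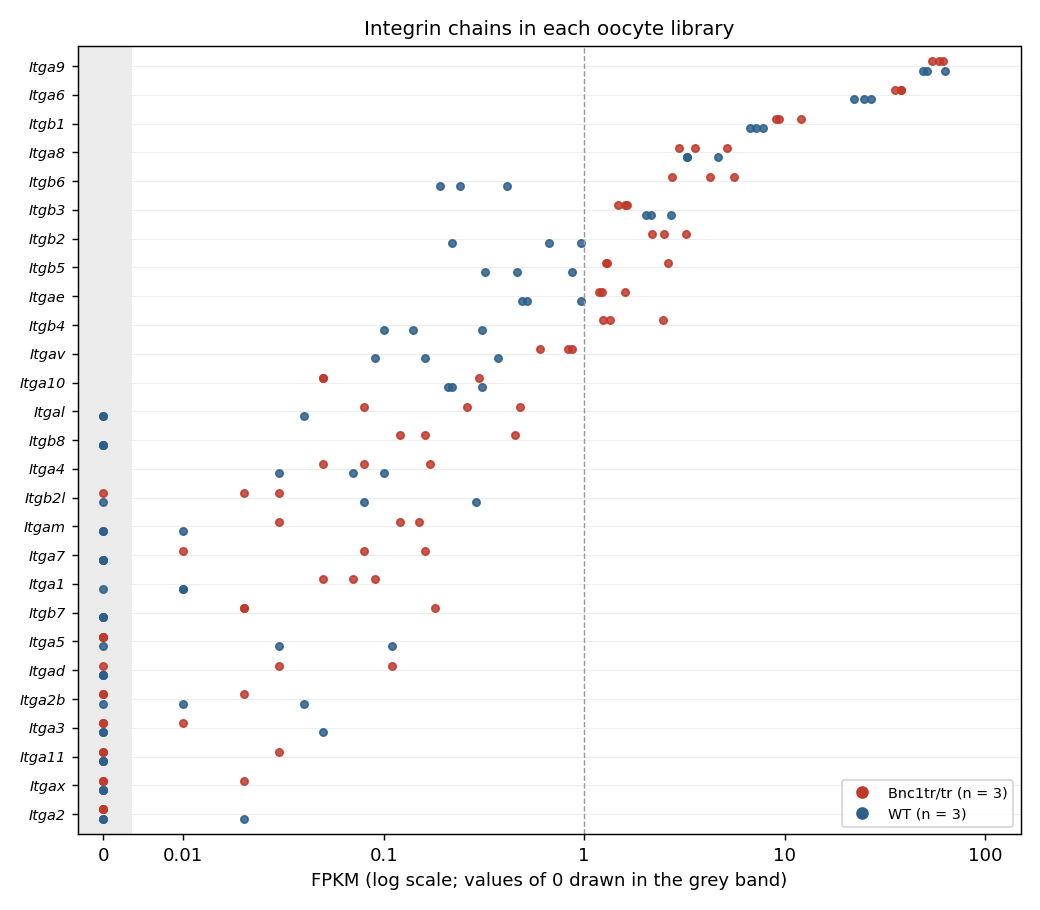
FPKM of each integrin chain in the 3 Bnc1tr/tr (red) and 3 WT (blue) libraries on a logarithmic axis, ordered by the mean over the 6 libraries, with values of 0 in the grey band and a dashed line at 1 FPKM. Itga9 sits at 49.2 to 63.0 FPKM over both groups, while the red points of Itgb6 (2.74 to 5.58 FPKM) lie to the right of its blue points (0.19 to 0.41 FPKM).

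The other integrin chains, Itgb4 included, had means under 1 FPKM over the 6 libraries. Of 19 untested chains, 9 were higher in all Bnc1tr/tr libraries than in all WT libraries and 0 were lower, where such separation occurred in 21.4% (higher) and 3.25% (lower) of all genes under the filter. Itgav, the shared partner of the beta chains of Itgb3, Itgb5, Itgb6 and Itgb8, was at 0.83, 0.60 and 0.87 FPKM in Bnc1tr/tr and 0.16, 0.09 and 0.37 FPKM in WT. Itgb6 was thus listed above its only known partner chain in each library, with ratios of 3.30, 9.30 and 4.85 in Bnc1tr/tr and of 1.5, 2.11 and 1.11 in WT. Itgae, an alpha chain that binds E-cadherin, was at 1.23, 1.19 and 1.60 FPKM in Bnc1tr/tr and 0.96, 0.52 and 0.49 FPKM in WT. Neither of these alpha chains overlapped between the groups, and both were named after their values were seen. Without the filter, Itgav was called higher (limma adjusted p = 0.026) and Itgae was not (adjusted p = 0.055). The collagen receptor chains Itga1, Itga2, Itga10 and Itga11 reached at most 0.31 FPKM, and the fibronectin receptor chain Itga5 was at 0 in all Bnc1tr/tr libraries and at 0.11, 0 and 0.03 FPKM in WT.

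Leukocyte chains and leukocyte markers were then set beside Itgb2. The leukocyte alpha chain Itgal was low, at 0.26, 0.48 and 0.08 FPKM in Bnc1tr/tr against 0, 0.04 and 0 FPKM in WT. Itgam was at 0.15, 0.03 and 0.12 against 0, 0.01 and 0 FPKM, and shares 68.3% of its words with another gene model. Both were higher in Bnc1tr/tr without overlap, as were 21.4% of all genes under the filter. The leukocyte alpha chains Itgad and Itgax reached at most 0.11 and 0.02 FPKM, with overlap. The 8 immune cell markers summed to 81.8, 126 and 60.5 FPKM in Bnc1tr/tr and 85.7, 97.3 and 66.2 FPKM in WT, of which C1qb made up 53.1 to 95.3 FPKM. Ptprc, the pan-leukocyte marker, was at 0.30, 0.07 and 0 FPKM in Bnc1tr/tr and at 0 in WT, and Lyz2, a myeloid marker, at 5.81, 48.0 and 0 FPKM against 0 in WT. C1qa, a complement gene of macrophages, was at 1.39, 1.66 and 0.61 FPKM and Adgre1, a macrophage surface marker, at 0.09, 0.09 and 0.13 FPKM in Bnc1tr/tr, and both were at 0 in WT. These were the 2 immune markers that separated without overlap, both higher in Bnc1tr/tr and under the filter, where 21.4% of all genes did so. Of the 4 immune markers tested, 0 were called by limma, where 31.8% of all tested genes were called. Log2 fold changes were 2.79 for Lyz2 (SE 1.10), 1.53 for Cd52 (SE 0.66), 0.73 for Cd68 and −0.40 for C1qb (limma adjusted p = 0.083, 0.11, 0.37 and 0.16). Lyz2 and Cd52 reached the filter only through Bnc1tr/tr, and Cd52 was at 8.71, 1.48 and 0 FPKM there and at 0 in WT. With such a spread between libraries, the missing calls do not show that Lyz2 and Cd52 were unchanged. The part of immune cells in the level of Itgb2 was not tested.

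Markers of surface epithelium were, as a sum, higher in Bnc1tr/tr, as were the epithelial chains Itgb6 and Itgb4. Of the 7 markers of this list 5 were listed, and their summed level was 32.9, 12.1 and 9.41 FPKM in Bnc1tr/tr and 1.71, 0.94 and 0.92 FPKM in WT. The keratin gene Krt8 was at 22.8, 6.05 and 6.17 FPKM in Bnc1tr/tr and at 1.05, 0.27 and 0.09 FPKM in WT, and 3 of 3 tested markers were called higher, beside 24.1% of all tested genes. All 3 (Krt8, Krt18 and Upk3b) reached the filter only through Bnc1tr/tr and so had to differ. Wt1, a defining marker of the ovarian surface and of granulosa cells, was at 0 in all Bnc1tr/tr libraries and at most 0.08 FPKM in WT. Krt8 was highest in Bnc1tr/tr replicate 1, where Itgb6 was lowest and Itgb4 highest. The part of other cells in these results was not tested, and more attached cells cannot be told apart from more RNA per cell.

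Laminin transcripts in the oocytes were dominated by a single beta chain. Lamb1, the beta chain of most basement membrane laminins (chr12:31265146-31329644), was the most abundant collagen, laminin or integrin gene in the series together with Itga9, at 56.3, 61.4 and 76.1 FPKM in Bnc1tr/tr and 48.8, 50.6 and 58.0 FPKM in WT. The groups overlapped (log2 fold change 0.29, SE 0.18, limma adjusted p = 0.25). Lamc1, the gamma chain needed for the same trimers, was low, at 0.78, 0.59 and 1.0 FPKM in Bnc1tr/tr and 0.53, 0.59 and 0.74 FPKM in WT. The ratio of Lamb1 to Lamc1 was 84.1 ± 17.4 in Bnc1tr/tr and 85.3 ± 6.83 in WT (SD, n = 3), a difference smaller than the spread.

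Of the 9 laminin chains listed, 5 were tested and 0 were called in either direction by limma, where 31.8% of all tested genes were called. At an unadjusted p under 0.05, 0 of the 5 passed, and the share of all tested genes under that p was not computed. Lama4, an alpha chain of vessel and muscle laminins, was at 5.56, 7.79 and 6.95 FPKM in Bnc1tr/tr and at 6.72, 6.56 and 8.05 FPKM in WT, with overlap (log2 fold change −0.07, adjusted p = 0.81). Lama2 and Lamb2 lay between 2.06 and 5.46 FPKM in all libraries, with log2 fold changes of −0.12 and −0.47 (adjusted p = 0.61 and 0.15). Lamb2 and Lama2 were called lower after quantile normalization (−0.87 and −0.51, adjusted p = 0.021 and 0.029). Under the filter, Lama5 separated downwards, with 0.52, 0.35 and 0.41 FPKM in Bnc1tr/tr and 0.80, 0.69 and 0.74 FPKM in WT, and Lama3 was above 0 only in Bnc1tr/tr (0.11, 0.07 and 0.36 FPKM). Both were named after their values were seen.

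Type IV collagen is the network former of basement membranes, and of its chains Col4a3 had the highest level in every library. Its level was 4.79, 4.98 and 2.75 FPKM in Bnc1tr/tr and 3.06, 2.45 and 1.91 FPKM in WT (chr1:82586921-82722059). Replicate 3 of Bnc1tr/tr fell within the WT range, and the difference missed the threshold (log2 fold change 0.56, SE 0.23, limma adjusted p = 0.094). Without that replicate Col4a3 was called higher (0.77, adjusted p = 0.032). Col4a4, the head-to-head neighbour of Col4a3 whose window is printed above, encodes a chain that assembles with it and was at 0.02, 0 and 0.01 FPKM in Bnc1tr/tr and at 0 in WT. For Col4a4, 3 fragments corresponded to 0.0141 to 0.0232 FPKM, so that its values were at or under that limit. Col4a3 was thus at least 1.91 FPKM in every library in which its neighbour was barely detected.

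Col4a1 and Col4a2 form the chains of most basement membranes and also share a promoter region. Col4a1 was at 0.43, 0.50 and 0.33 FPKM in Bnc1tr/tr and 0.51, 0.35 and 0.35 FPKM in WT, with overlap. Col4a2 was at 0.69, 0.52 and 0.86 FPKM in Bnc1tr/tr and 0.11, 0.17 and 0.39 FPKM in WT, without overlap. Neither gene passed the filter, and without it Col4a2 was not called (log2 fold change 0.47, limma adjusted p = 0.05). Col4a5 was at 0.16, 0.01 and 0.04 FPKM in Bnc1tr/tr and 0.09, 0.01 and 0 FPKM in WT, and Col4a6 at 0.02, 0.05 and 0 FPKM against 0 in WT. The 7 basement membrane collagens summed to 5.40 ± 1.22 FPKM in Bnc1tr/tr and 3.13 ± 0.576 FPKM in WT (SD, n = 3), and the lowest Bnc1tr/tr sum (3.99 FPKM) was above the highest WT sum (3.77 FPKM).

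Of the collagens of the ovarian stroma, Col1a1 was close to absent, and Col1a2 and Col3a1 were not analysed here. Col1a1, the main chain of fibrillar collagen in connective tissue, was at 0, 0.01 and 0 FPKM in Bnc1tr/tr and at 0 in WT, where 3 fragments corresponded to 0.0244 to 0.0402 FPKM. Col2a1 and Col11a1 reached at most 0.16 and 0.01 FPKM. The remaining 2 fibrillar chains, of a group found mainly in developing skeleton and other restricted sites, were higher in Bnc1tr/tr. Col24a1 (NCBI Gene 71355, chr3:145292472-145552013) was at 1.12, 1.24 and 2.10 FPKM in Bnc1tr/tr and at 0.75, 0.56 and 0.49 FPKM in WT. The groups did not overlap, and it was the single matrix gene called higher (log2 fold change 0.62, SE 0.19, limma adjusted p = 0.037), having passed the filter only through Bnc1tr/tr. The call was lost under 9 of 13 alternatives, including median-ratio scaling (adjusted p = 0.069), quantile normalization (0.20, adjusted p = 0.47) and the removal of Bnc1tr/tr replicate 2 or 3 (adjusted p = 0.062 and 0.12) or of WT replicate 1, 2 or 3 (adjusted p = 0.052, 0.11 and 0.068). Col27a1 was at 0.58, 0.86 and 0.68 FPKM in Bnc1tr/tr and at 0.02, 0 and 0 FPKM in WT. It did not pass the filter, and without it the gene was called higher (log2 fold change 0.76, SE 0.09, adjusted p = 0.0034).

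Collagens that decorate fibrils (FACIT collagens) showed a like mixture. Col9a3 was at 1.57, 0.92 and 1.13 FPKM in Bnc1tr/tr and 2.0, 2.14 and 0.90 FPKM in WT, with overlap (log2 fold change −0.26, limma adjusted p = 0.43). Its partner chain Col9a1 was at 0.24, 0.33 and 0.32 FPKM in Bnc1tr/tr and at 0 in WT, where 3 fragments corresponded to 0.0385 to 0.0635 FPKM. Col19a1 was at 0.71, 1.10 and 0.47 FPKM in Bnc1tr/tr and at 0.30, 0.40 and 0.41 FPKM in WT, and Col14a1 at 1.2, 0.66 and 0.47 FPKM against 0.13, 0.05 and 0.01 FPKM. None of these 3 chains overlapped between the groups, and Col14a1, named after its values were seen, was called higher without the filter (log2 fold change 0.72, SE 0.16, adjusted p = 0.029).

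Type VI collagen forms beaded filaments around cells. Col6a6 was at 3.32, 3.32 and 4.15 FPKM in Bnc1tr/tr and 5.07, 3.05 and 2.18 FPKM in WT, and Col6a3 at 1.5, 1.34 and 1.91 FPKM against 0.86, 0.95 and 1.49 FPKM. Both overlapped between the groups (log2 fold change 0.10 and 0.30, limma adjusted p = 0.79 and 0.24). Col6a4, named after its values were seen, separated downwards, at 0.14, 0.31 and 0.10 FPKM in Bnc1tr/tr against 0.46, 0.64 and 0.52 FPKM in WT. Without the filter its log2 fold change was −0.38 (adjusted p = 0.046), under the fold-change threshold. Of the transmembrane collagens, Col25a1 was at 2.03, 1.54 and 1.09 FPKM in Bnc1tr/tr and at 2.98, 2.45 and 1.74 FPKM in WT, with overlap (log2 fold change −0.41, adjusted p = 0.17). After quantile normalization it was called lower (−0.84, adjusted p = 0.0076). Col13a1 was at 0.68, 0.52 and 0.36 FPKM in Bnc1tr/tr and at 0.81, 0.78 and 0.54 FPKM in WT, with overlap.

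Fibronectin, which links integrins to collagen, was at 2.72, 3.25 and 3.32 FPKM (Fn1) in Bnc1tr/tr and at 2.70, 3.10 and 1.99 FPKM in WT. The groups overlapped (log2 fold change 0.20, 95% interval −0.21 to 0.60, limma adjusted p = 0.44). The nidogens, which tie laminin to type IV collagen, were near 0 in both groups. Nid2 was at 0.06, 0.11 and 0.26 FPKM in Bnc1tr/tr and at 0.07, 0 and 0 FPKM in WT, and Nid1 reached at most 0.29 FPKM.

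**Figure D2:**
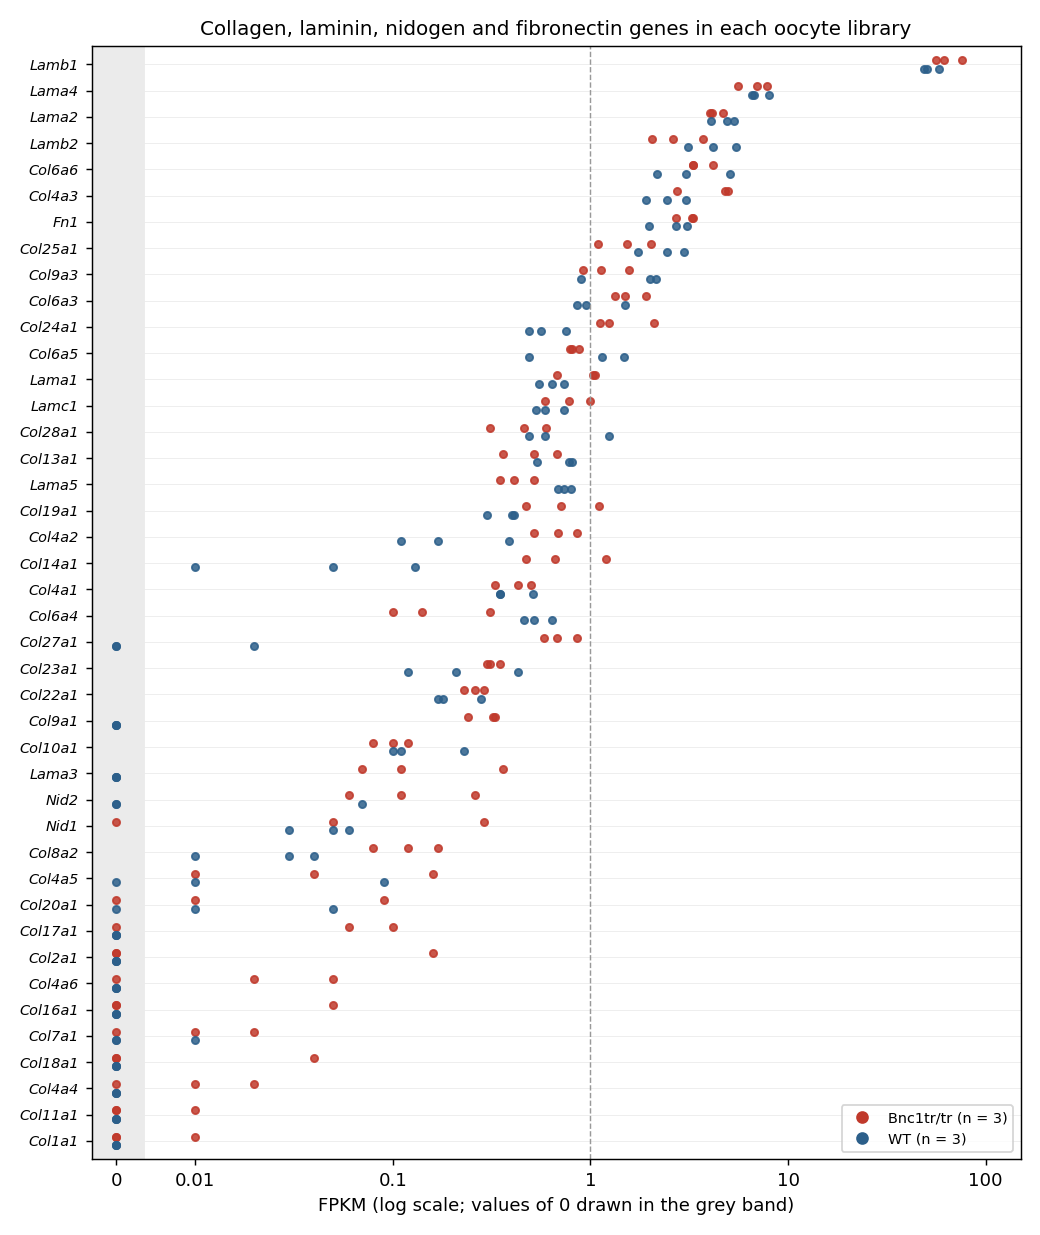
FPKM of collagen, laminin, nidogen and fibronectin genes in the 3 Bnc1tr/tr (red) and 3 WT (blue) libraries on a logarithmic axis, ordered by the mean over the 6 libraries, with values of 0 in the grey band and a dashed line at 1 FPKM. Lamb1 stands alone at 48.8 to 76.1 FPKM, and the other genes shown are at or under 8.05 FPKM.

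Matrix genes, including those of stroma, and the integrin chains of the oocyte were then set side by side. Over all members, 23 were tested and 5 were called changed, all higher in Bnc1tr/tr, where 31.8% of all tested genes were called (24.1% higher and 7.68% lower). Of the 8 tested integrin chains 4 were called, and of the 12 tested matrix genes 1 was called. The filter admitted 3 of these integrin chains and 1 of these matrix genes only through Bnc1tr/tr. Over the 5 integrin chains and 11 matrix genes that were tested and had a WT mean of at least 1 FPKM, the median log2 fold change was 0.10 in both classes, beside 0.08 over the 9600 tested genes with such a WT mean. Among the 20 members with a WT mean of at least 1 FPKM, 19 were tested and Itga6 was the single one called. Such a minimum leaves out genes that rose from low WT levels. The share called among all genes with such a WT mean was not computed, so this count has no matching share beside it. The other 4 calls (Itgb6, Itgb2, Itgb5 and Col24a1) were the 4 members that reached the filter only through Bnc1tr/tr. By limma, 0 members were called lower, and at an unadjusted p under 0.05 there were 7 higher and 1 lower (Itgb3bp). The share of all tested genes under that unadjusted p was not computed. Median-ratio scaling gave 3 higher and 1 lower, beside 1954 higher and 1534 lower of all 10560 tested genes. Quantile normalization gave 2 higher and 6 lower, beside 1670 higher and 1811 lower of all tested genes. The number called fell to 3 without Bnc1tr/tr replicate 1, WT replicate 1 or WT replicate 3 and to 2 without WT replicate 2.

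**Figure D3:**
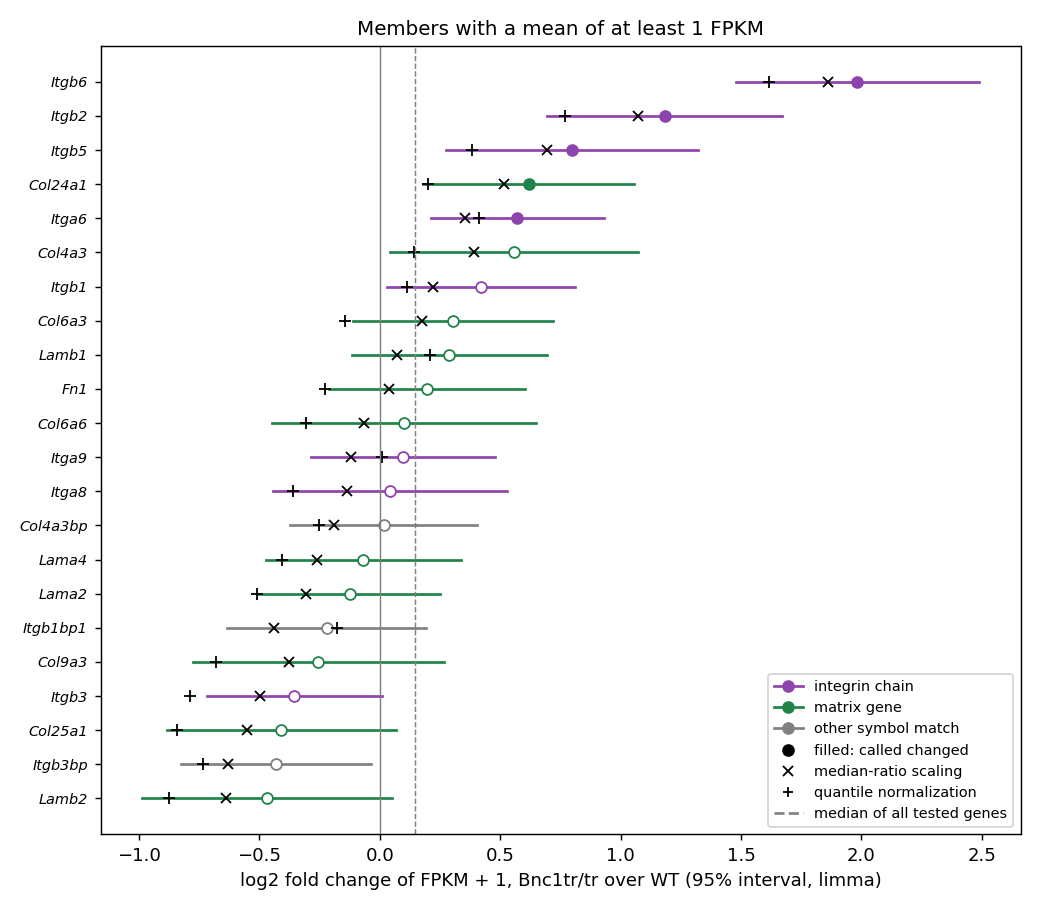
Log2 fold change (Bnc1tr/tr over WT, FPKM + 1) of tested members with limma 95% intervals, coloured by class, filled where called, with crosses for median-ratio scaling, plus signs for quantile normalization and a dashed line at the median of all tested genes (0.15). The 5 filled points are Itgb6 (1.98), Itgb2, Itgb5, Col24a1 and Itga6 (0.57), and the plus signs lie to the left of most circles.

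At low levels more members were detected in Bnc1tr/tr. Members above 0 numbered 62, 62 and 63 in Bnc1tr/tr and 53, 50 and 48 in WT, beside the larger number of all genes listed above 0 in Bnc1tr/tr. Among the 50 untested members, 16 were higher and 2 lower (Col6a4 and Lama5) without overlap, in the 7017 genes under the filter 21.4% and 3.25%. Among the tested members, 6 were higher and 2 lower without overlap, beside 32.7% and 14.1% of all tested genes. At 0 in all WT libraries and above 0 in all Bnc1tr/tr libraries were 5 of 73 members (Itga7, Itgb7, Itgb8, Lama3 and Col9a1), and 2.37% of all listed genes. Without the filter 4 of the 50 were called higher (Itgb4, Col27a1, Col14a1 and Itgav) and 0 lower, beside 15.6% and 3.83% of the 17574 genes then tested. Those shares include the genes above the filter. The share among genes under it was not computed, so these counts have no matching share beside them.

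**Figure D4:**
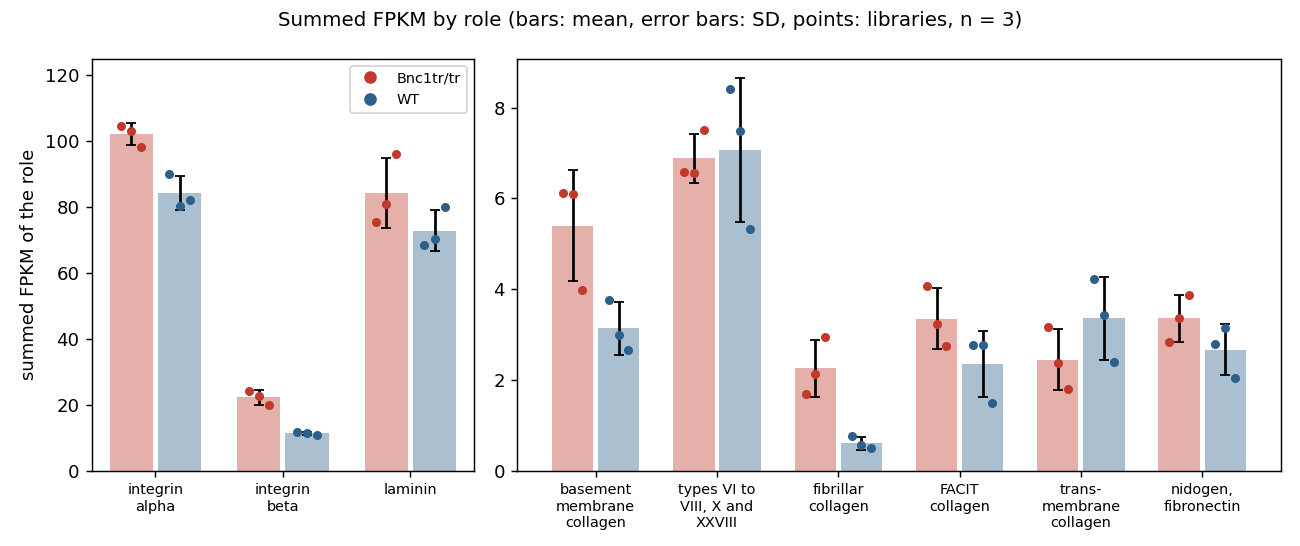
Summed FPKM of the members of each role (bars, mean; error bars, SD; points, libraries, n = 3 a group), with abundant roles in the left panel and the others on a smaller scale in the right panel. Integrin beta chains sum to 19.9 to 24.2 FPKM in Bnc1tr/tr and 10.9 to 11.7 FPKM in WT, while the laminin sums overlap.

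The 3 genes matched by symbol alone serve other functions. Itgb1bp1 encodes an adaptor that binds the cytoplasmic tail of the integrin beta chain of Itgb1 and was the most abundant gene matched, at 170.3, 230.0 and 221 FPKM in Bnc1tr/tr and 224, 228 and 269 FPKM in WT. These overlapped (log2 fold change −0.22, limma adjusted p = 0.39), and 16.9% of its exon bases overlap genes on the opposite strand, which cannot be told apart without strand. Col4a3bp, a ceramide transfer protein, was at 12.2, 12.4 and 13.1 FPKM in Bnc1tr/tr and 14.8, 11.8 and 10.9 FPKM in WT, with overlap (log2 fold change 0.02, adjusted p = 0.96). Itgb3bp, a centromere protein, was at 7.47, 7.95 and 6.91 FPKM in Bnc1tr/tr and 8.70, 10.6 and 12.1 FPKM in WT. All Bnc1tr/tr libraries were lower, and the difference missed the threshold (log2 fold change −0.43, SE 0.17, adjusted p = 0.091) but passed it with median-ratio scaling (−0.63, adjusted p = 0.032).

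Genes that assemble, surround and cut the matrix were then examined by list. Among other matrix proteins, 30 of 36 were listed, 10 were tested, and 6 were called higher and 0 lower by limma, beside 24.1% and 7.68% of all tested genes. The filter admitted 5 of the 10 only through Bnc1tr/tr, among them the called genes Sparc, Fbn2 and Postn, and of the 5 others 3 were called higher. Sparc, a collagen-binding protein, had the largest rise, from 0.77, 0.33 and 0 FPKM in WT to 7.19, 8.87 and 7.23 FPKM in Bnc1tr/tr (log2 fold change 2.71, SE 0.23, adjusted p = 4.1e-05). Mfap2, a microfibril protein, was the most abundant, at 288 ± 42.7 FPKM in Bnc1tr/tr and 218 ± 11.3 FPKM in WT (SD, n = 3, adjusted p = 0.11). Among matrix proteases and inhibitors 3 of 8 tested genes were called higher and 0 lower, of which Mmp3 and Adamts4 reached the filter only through Bnc1tr/tr. Of the 5 genes with a WT mean of at least 1 FPKM 1 was called, Adam17. Mmp3, the stromelysin that cleaves laminin and fibronectin, was at 15.5, 12.0 and 9.11 FPKM in Bnc1tr/tr and at 0, 0 and 0.17 FPKM in WT (log2 fold change 3.62, SE 0.21, adjusted p = 4.9e-06). Plat, the tissue plasminogen activator known from oocytes, was the most abundant, at 331 ± 54.2 and 424 ± 113 FPKM (adjusted p = 0.31).

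In the list of collagen assembly and cross-linking, 11 genes were tested, 1 was called higher and 2 lower by limma, beside 24.1% and 7.68% of all tested genes. Pcolce2, an enhancer of procollagen processing, was at 14.3, 18.4 and 21.1 FPKM in Bnc1tr/tr and 3.29, 2.83 and 3.64 FPKM in WT (log2 fold change 2.14, SE 0.19, adjusted p = 5.6e-05). Ppib, a folding enzyme of the secretory pathway, fell by 0.92 on the log2 scale (54.96, 35.2 and 51.2 FPKM against 89.1, 94.8 and 81.6 FPKM, adjusted p = 0.0084). P4ha1, a collagen prolyl hydroxylase subunit, was the most abundant, at 78.4 ± 8.22 and 71.0 ± 13.9 FPKM (adjusted p = 0.59). Serpinh1 and Lox were named after their values were seen. Serpinh1, the collagen chaperone of collagen-making cells, was at 0 in all Bnc1tr/tr libraries and at most 0.03 FPKM in WT, and Lox, which cross-links collagen, reached at most 0.01 FPKM.

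Calls among other receptors and partners of the integrins were 22.2% of the matrix receptors, 22.2% of the adhesion machinery and 20.0% of the tetraspanins tested, beside 31.8% of all tested genes. Among 9 other matrix receptors tested, 2 were called higher and 0 lower by limma, the collagen receptor Ddr1 (10.7, 5.86 and 6.46 FPKM in Bnc1tr/tr, 2.56, 2.52 and 2.26 FPKM in WT, log2 fold change 1.29, adjusted p = 0.0023) and the thrombospondin receptor Cd36, the most abundant (104 ± 7.51 and 46.2 ± 4.28 FPKM, log2 fold change 1.16, adjusted p = 0.00076). Of 18 tested genes of the adhesion machinery 4 were called higher and 0 lower. Kank1, which encodes a protein at the rim of adhesions and reached the filter only through Bnc1tr/tr, rose most, with 4.58, 3.21 and 4.39 FPKM in Bnc1tr/tr and 0.86, 0.69 and 0.64 FPKM in WT (log2 fold change 1.54, adjusted p = 0.00024), and Fermt2, a kindlin that activates integrins, was the most abundant (55.03 ± 4.91 and 44.9 ± 2.94 FPKM, adjusted p = 0.21). Of 5 tested integrin-associated tetraspanins 1 was called higher and 0 lower. This gene, Cd63, also reached the filter only through Bnc1tr/tr and was at 12.5, 2.26 and 2.48 FPKM in Bnc1tr/tr and 0.89, 0.44 and 0.13 FPKM in WT (log2 fold change 1.88, SE 0.49, adjusted p = 0.019). Cd9, the oocyte tetraspanin required for sperm fusion, was the most abundant, at 192 ± 12.9 and 276 ± 42.5 FPKM (log2 fold change −0.51, adjusted p = 0.056).

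Marker lists place these values among the cells of the ovary. The calls of each list stand beside 24.1% called higher and 7.68% called lower over all tested genes. The 12 oocyte markers summed to between 15890 and 17161 FPKM in Bnc1tr/tr and between 17631 and 19307 FPKM in WT, led by Dppa3. All 12 were tested, and 1 was called higher and 2 lower. Granulosa markers summed to 43.3, 60.4 and 45.9 FPKM in Bnc1tr/tr and 36.7, 39.9 and 22.7 FPKM in WT, led by Cyp19a1, with 2 of 5 tested called higher (Fshr and Kitl). The other tested markers were not called, with log2 fold changes of 0.57 for Cyp19a1, 0.42 for Nr5a2 and −1.11 for Inha (limma adjusted p = 0.1, 0.14 and 0.24). Inha was at 0.18, 1.81 and 0.09 FPKM in Bnc1tr/tr and at 6.78, 3.45 and 0.04 FPKM in WT, with overlap. Fshr, the receptor of follicle-stimulating hormone, was at 4.54, 5.83 and 5.37 FPKM in Bnc1tr/tr and at 0.31, 0.74 and 0 FPKM in WT, and reached the filter only through Bnc1tr/tr. Foxl2, another defining granulosa marker, was at 0 in all Bnc1tr/tr libraries and at 0.03, 0 and 0 FPKM in WT. Stromal fibroblast markers, of which 5 of 8 were listed, summed to 7.91, 10.4 and 6.26 FPKM in Bnc1tr/tr and 1.56, 1.64 and 2.17 FPKM in WT, and were led by Dcn, the 1 marker tested, which was called higher. Theca markers summed to 7.63, 6.58 and 6.15 FPKM against 2.88, 1.75 and 0.77 FPKM, led by Cyp11a1, the 1 marker tested, which was called higher. Smooth muscle markers summed to 12.6 to 14.9 FPKM in Bnc1tr/tr and 18.3 to 25.2 FPKM in WT, led by Cnn1, and endothelial markers to 5.62 to 8.48 FPKM and 10.1 to 11.9 FPKM, led by Pecam1, with 1 of 2 tested called lower in each list. Of the endothelial markers, 2 were higher without overlap, Kdr (1.54, 0.64 and 0.53 FPKM in Bnc1tr/tr, 0.10, 0.12 and 0.07 FPKM in WT) and Cldn5 (0.38, 0.69 and 0.24 FPKM, 0.06, 0.20 and 0 FPKM), beside 21.4% of all genes under the filter. Pecam1 was lower without overlap, beside 14.1% of all tested genes, and Cdh5 reached at most 0.02 FPKM.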

How the data were processed

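Per the labels and methods, single GV oocytes were processed by modified Smart-seq2 and Tn5-based (TruePrep) libraries were sequenced on an Illumina platform. The authors deposited a table per library with gene IDs, symbols and FPKM values rounded to 2 decimals. The submitters' processing notes name HISAT2 2.0.4, Bowtie2 2.2.5, RSEM 1.2.12 and the build GRCm38.p6. The annotation, gene filter and strand handling were not given in the sources used here, and symbols that the tables do not list were not analysed here. FPKM is relative to the fragments of its own library, and since the cDNA was amplified and carried no molecular identifiers, fragments are not independent molecules.

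R 4.3.3 and its package limma 3.58.1 were used to compare log2(FPKM + 1) of genes averaging 1 FPKM or more, with Benjamini-Hochberg adjustment over all 10560 genes and all 6 samples in a model of genotype. The methods give no test for the oocyte data, and the thresholds follow the study. Alternatives were a pseudocount of 0.1, no filter or a minimum mean of 5 FPKM, upper-quartile and median-ratio scaling, quantile normalization, the replicate number as a block, trend and robust variances, a log2 threshold of 1, and leaving out each library. Library pairs within a group had correlations of 0.983 to 0.993. Depth was estimated from the spacing of low FPKM values of genes with transcripts of 450 to 1600 bases and entered no test. The model and the depth estimate were tested on simulated data. Scripts used Python 3.11.15, pandas 2.3.3, numpy 2.4.6 and matplotlib 3.10.9.

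The members, gene lists and marker lists were chosen with earlier results of these data known. Values in every library are given for called members, for integrin chains with a mean of at least 1 FPKM, for the 2 most abundant members of each role and for the 6 type IV collagen chains. Each pathway list is given by its counts, its largest called rise and fall and its most abundant gene. Some members named outside this rule are marked as such where they were singled out. Others outside it are not marked there, among them Lamc1, Col9a1, Itgal, Itgam, Itga5 and Itgb3bp. A member counted in the totals is not reported here by itself.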

Additional observations from a re-analysis of the deposited data

How the results depend on the processing

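Of the 5 members called, Itgb6 and Itgb2 kept their calls under every alternative that could test them, whereas Itgb5, Itga6 and Col24a1 lost theirs under 5 of 13, 7 of 14 and 9 of 13. Itgb6, Itgb2, Itgb5 and Col24a1 reached the filter only through Bnc1tr/tr, and most alternatives used the same filter. Calls kept by these genes are therefore no independent support, and a minimum mean of 5 FPKM left them untested. Against 5 members changed (5 higher, 0 lower), a minimum mean of 5 FPKM left 1 (1 higher), because 8 members were then tested, and a log2 threshold of 1 left 2 (2 higher). Median-ratio scaling gave 3 higher and 1 lower, beside 1954 and 1534 of all 10560 tested genes. Quantile normalization gave 8 changed (2 higher, 6 lower), beside 1670 higher and 1811 lower of all tested genes. The cause of these shifts was not tested, but the scalings moved the median log2 fold change of all genes from 0.15 to −0.05 and −0.09. Leaving out 1 library gave 2 to 4 members changed, 2 to 4 higher and 0 lower, 2 to 3 integrin chains, 0 to 1 matrix genes and 2323 to 3539 of all genes. Integrin chains changed numbered 4, 1 at a minimum mean of 5 FPKM and 2 at a log2 threshold of 1. Matrix genes changed numbered 1, 2 without a filter, 4 after quantile normalization, and 0 at a minimum mean of 5 FPKM, with median-ratio scaling, with trend and robust variances and at a log2 threshold of 1. All genes changed numbered 3358, 2046 at a minimum mean of 5 FPKM and 1677 at a log2 threshold of 1.

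Signs turned for members that were not called. With median-ratio scaling the log2 fold change was −0.12 for Itga9, −0.19 for Col4a3bp, −0.14 for Itga8 and −0.067 for Col6a6. After quantile normalization it was −0.25 for Col4a3bp, −0.36 for Itga8, −0.31 for Col6a6, −0.23 for Fn1 and −0.15 for Col6a3. Leaving out 1 library gave −0.07 to 0.14 for Col4a3bp, −0.16 to 0.048 for Lama4, −0.13 to 0.18 for Itga8 and −0.11 to 0.35 for Col6a6, the lowest of these without WT replicate 3 for Col4a3bp and Col6a6, without Bnc1tr/tr replicate 2 for Lama4 and without Bnc1tr/tr replicate 1 for Itga8.

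The labels do not say whether the replicate numbers pair the libraries. Deviations of same-numbered libraries correlated at 0.28, −0.03 and 0.12 over genes, and those of differently numbered libraries at −0.25 to 0.16. With so few libraries these values cannot decide whether the numbers pair them. With the replicate number as a block, 6 members were called, all 5 and Col4a3 (adjusted p = 0.039 by limma), which makes 2 matrix genes. Depth limits members near 0, for which a few fragments set the value, and 3 libraries a group limit all tests.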

Other observations

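Ratios of chains within a library do not change when all its values are scaled by the same factor, as in median-ratio scaling. They can change with quantile normalization, under which they were not computed. The ratios were set beside each other without a test. The ratio of Itga6 to Itga9, the most abundant integrin alpha chains, was 0.645, 0.582 and 0.7004 in Bnc1tr/tr and 0.353, 0.489 and 0.549 in WT, so that all Bnc1tr/tr libraries were above all WT libraries. The ratio of Itga6 to Itgb1, which together form a laminin receptor, was 3.73 ± 0.538 in Bnc1tr/tr and 3.42 ± 0.293 in WT (SD, n = 3), with overlap. The ratio of Itga9 to Itgb1 was 4.89, 6.56 and 6.02 in Bnc1tr/tr and 9.37, 6.54 and 6.83 in WT, also with overlap. The ratio of Itga6 to its other partner Itgb4 was 15.4, 26.4 and 30.6 in Bnc1tr/tr and 222, 178 and 87.1 in WT, without overlap.

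Ratios also differed among matrix chains. The ratio of Lamb1 to Lamb2, which occupy the same place in laminin trimers, was 21.6, 16.6 and 37.0 in Bnc1tr/tr and 15.6, 12.2 and 10.6 in WT, without overlap, and its lowest Bnc1tr/tr value lay close to the highest WT value. The ratio of Col4a3 to Col4a1 was 11.1, 9.96 and 8.33 in Bnc1tr/tr and 6.0, 7.0 and 5.46 in WT, without overlap, and rests on levels of Col4a1 of 0.33 to 0.51 FPKM. The ratio of Itgb1bp1, the most abundant gene matched, to Itgb1 was 14.2, 24.7 and 24.6 in Bnc1tr/tr and 33.2, 29.2 and 37.4 in WT, without overlap.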
